A study of Homo sapiens with 6 samples.

Results

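The transcripts described here encode Toll-like receptors TLR1 to TLR6, the co-receptor TRIL, the adaptors MYD88 and TICAM1 and the receptor chaperone UNC93B1. They were chosen by gene symbol, and all 10 were present among the 24526 genes of the deposited count table. RNA came from WM266.4, an established human melanoma cell line, in 2 groups of 3 libraries, each described by the study as a biological replicate. The neg.si cells were transfected with a negative control siRNA and the RIPK4.si cells with an siRNA specific for RIPK4, and RNA was isolated 48 h later. A small interfering RNA guides the breakdown of transcripts that match it. Both groups thus received short double-stranded RNA, a single siRNA product served each group, and no untransfected culture was analysed here.

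Toll-like receptors are membrane proteins that recognise microbial molecules and nucleic acids and are best known from innate immune cells, although melanocytes and melanoma cells also express some of them. TLR1, TLR2, TLR4, TLR5 and TLR6 act mainly at the cell surface, on bacterial lipopeptides, lipopolysaccharide and flagellin, and signal through MYD88. TLR3 lies in endosomes, binds double-stranded RNA and signals through TICAM1, also called TRIF, while TLR4 uses both adaptors. TRIL is a leucine-rich repeat protein described as an accessory component of TLR3 and TLR4 signalling, and UNC93B1 carries nucleic acid-sensing receptors from the endoplasmic reticulum to endosomes.

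Libraries held between 28464057 and 31688095 counts on genes. A level is in CPM, the count relative to a library size adjusted by edgeR's TMM factors, and differences are log2 fold changes of RIPK4.si over neg.si from edgeR's quasi-likelihood test, with p-values adjusted by the Benjamini-Hochberg method over the 16297 genes that passed its filter on low counts. A gene was called when its adjusted p-value was under 0.05. The targeted RIPK4 had 2656, 2298, 1739 counts in the control libraries (replicates 1, 2, 3) against 585, 482, 670 after silencing. Its log2 fold change was -1.90 with SE 0.203 and edgeR adjusted p = 0.0102. The RIPK4 call was lost, at adjusted p-values of 0.0622 to 0.106, without neg.si replicate 2 or any 1 of the RIPK4.si replicates, with log2 fold changes between -1.98 and -1.79. Of 8 melanocyte lineage markers, all were detected, and they summed to 3573 to 4012 CPM in neg.si and 2635 to 2759 CPM in RIPK4.si. Of the 8, 5 had log2 fold changes below 0 and 3 above. edgeR called 1 of them where it called 0.767% of all tested genes, DESeq2 3 (2.78% of all) and the fit with the GC trend removed 2 (3.42% of all). PMEL, a melanosome structural protein, was called in each, at a log2 fold change of -1.30 (edgeR adjusted p = 0.0111). DCT, a melanin synthesis enzyme, was at -0.73 (adjusted p = 0.0854 with edgeR, 0.0036 with DESeq2 and 0.018 with the GC trend removed). TYR, the rate-limiting enzyme of melanin synthesis, was at -0.57 (adjusted p = 0.148 with edgeR, 0.0417 with DESeq2 and 0.127 with the GC trend removed), and S100B was at -0.48 (edgeR adjusted p = 0.391). SOX10, MITF, MLANA and TYRP1 were at -0.15, 0.04, 0.06 and 0.36, with edgeR adjusted p-values of 0.876, 0.975, 0.963 and 0.502. Of 12 myeloid and lymphoid markers, 10 were in the table, and these summed to 7.21 to 9.88 CPM in neg.si and 5.57 to 6.44 CPM in RIPK4.si. PTPRC (CD45), the pan-leukocyte marker, reached at most 13 counts in a library. Of the 10, 6 were tested, 2 with log2 fold changes above 0 and 4 below. edgeR called 0 of the 6 (0.767% of all), DESeq2 1 (2.78% of all) and the fit with the GC trend removed 0 (3.42% of all). The 1 was ITGAM (CD11b), at a log2 fold change of -0.98 (edgeR adjusted p = 0.167, and 0.0477 from DESeq2). The part of either marker list in the values below was not tested.

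The promoters are shown because interferon and NF-kB response elements there belong to the same pathway. RefSeq promoters, from 250 bases before to 50 bases after the annotated start on GRCh38.p14, were found for 8 of the 10 genes and searched on both strands for 3 motifs of factors that act downstream of Toll-like receptors, chosen after the sequences had been seen. The core of the interferon-stimulated response element (GAAA, any 2 bases, GAAA) was present in 3.57% of all 35116 promoters and in 2 of the 8, TLR3 and MYD88. The windows below show it in capitals. In TLR3 it lies on the opposite strand and begins 4 bases before the RefSeq start, and in MYD88 it begins 61 bases before it. RefSeq starts can differ from the gene starts in the count table, and both of these matches lie inside the gene spans given below.
TLR3, chr4:186069142-186069171, plus strand: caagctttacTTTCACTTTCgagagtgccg
MYD88, chr3:38138590-38138619, plus strand: gcgcttctcgGAAAGCGAAAgccggcgggg
A permissive NF-kB motif (GGGA, any 4 bases, CC) was present in 25.6% of all promoters and in 4 of the 8, TLR2, TLR5, TRIL and TICAM1. The next windows show 1 match each for TICAM1, where matches on both strands overlap, and for TRIL, with the motif in capitals, beginning 120 and 75 bases before the start.
TICAM1, chr19:4831813-4831842, minus strand: gggcgacccgGGGACTTTCCcggtgctgcg
TRIL, chr7:28958386-28958415, minus strand: ccactcggctGGGAGAATCCgcgccaggga
The AP-1 motif TGANTCA, present in 7.71% of all promoters, was found in 0 of the 8. A match describes the letters only.

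With edgeR, 0 of the 9 genes tested were called, where 0.767% of all tested genes were, 0.374% higher and 0.393% lower in RIPK4.si. At an unadjusted p-value under 0.05 there were 2, TLR3 and TRIL, both higher in RIPK4.si, where 10.8% of all tested genes passed in either direction, 4.85% higher and 6.0% lower in RIPK4.si. In the same 2 genes the RIPK4.si libraries all lay above the neg.si libraries, as they did in 8.23% of tested genes, and groups did not overlap in 17.6% of them in either direction (9.4% lower in RIPK4.si). DESeq2 and edgeR with each library's GC trend removed each called 1 of the genes, TLR3, where they called 2.78% and 3.42% of the genes they tested. The log2 fold changes of the 9 genes ran from -0.18 to 0.95 with a median of 0.06, and the median over all tested genes was -0.02. The genes were chosen with results for TLR3 and TRIL already known, so their counts are a description.

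**Figure D1:**
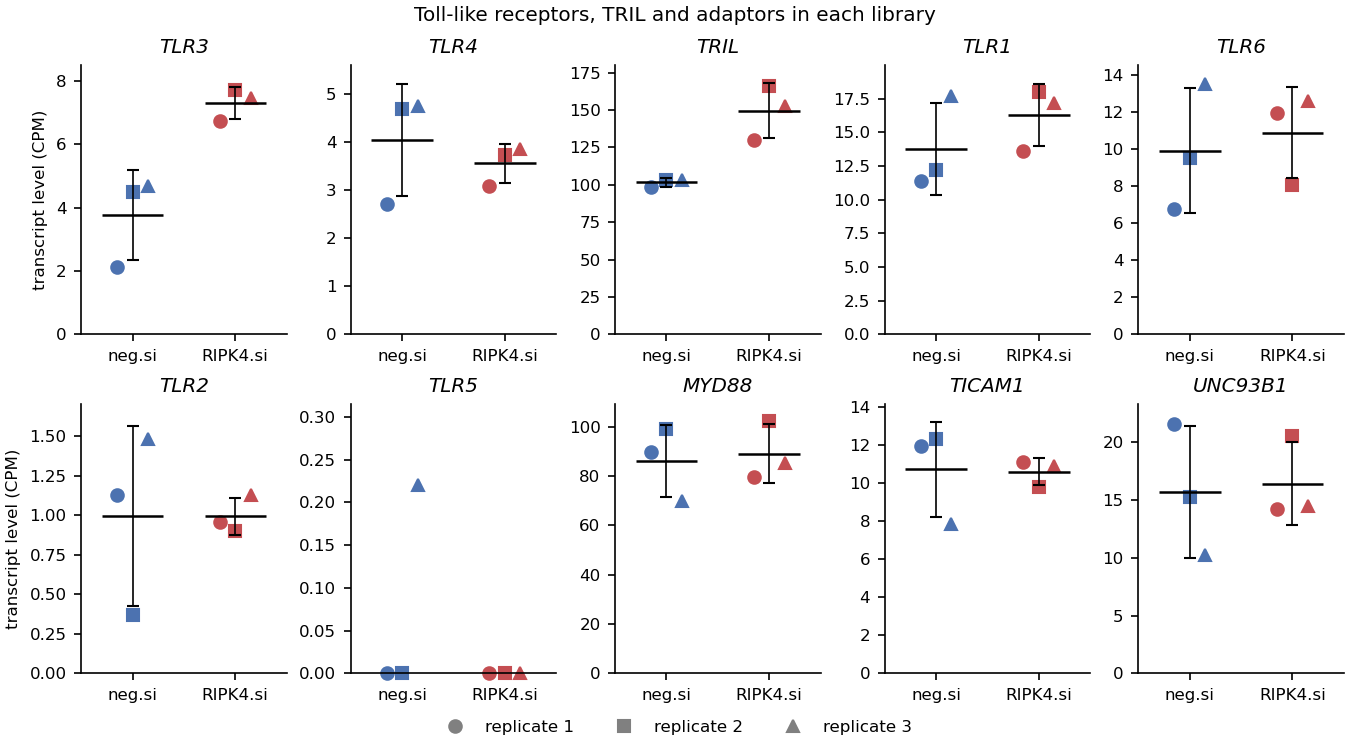
Transcript level in CPM of each of the 10 genes in the 3 neg.si and 3 RIPK4.si libraries, on linear axes from 0; symbols mark replicate numbers, horizontal bars the mean and error bars the SD (n = 3), left out for TLR5. TLR3 and TRIL are the 2 genes whose groups do not overlap, and TLR5 has counts in 1 library.

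TLR3, the endosomal receptor for double-stranded RNA (ENSG00000164342.12, chromosome 4, 186069152 to 186088069, plus strand), had 66, 135 and 149 counts in neg.si replicates 1, 2 and 3. In RIPK4.si replicates 1, 2 and 3 it had 198, 223 and 232. Every RIPK4.si library was above every neg.si library, and neg.si replicate 1 was far below the other two of its group. The corresponding levels were 3.77 ± 1.42 CPM (SD, n = 3) and 7.31 ± 0.503 CPM (SD, n = 3). The log2 fold change was 0.95 (SE, the standard error, 0.288, 95% interval 0.31 to 1.60, edgeR adjusted p = 0.219). This is a fitted ratio of 1.94, with an interval of 1.24 to 3.03. A two-sided exact permutation test gave p = 0.1, the smallest that 3 libraries against 3 allow. In such bulk libraries, more cells with a transcript and more transcript per cell cannot be told apart.

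The call for TLR3 turned on the processing, while its direction did not. Its adjusted p-value was 0.0493 with DESeq2 and 0.0446 with the GC trend removed, and it lay between 0.0327 and 0.613 over all alternatives. Without neg.si replicate 1, in which TLR3 was lowest, the log2 fold change was 0.69 (edgeR adjusted p = 0.186). Without neg.si replicate 3 it was 1.15 (adjusted p = 0.0784).

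TRIL (ENSG00000255690.3, chromosome 7, 28953358 to 28958330, minus strand) was counted 3049, 3096 and 3278 times in neg.si replicates 1, 2 and 3. It was counted 3816, 4801 and 4746 times in RIPK4.si replicates 1, 2 and 3. The neg.si libraries lay close together, and the RIPK4.si libraries were all higher and more spread, with replicate 1 the lowest. Levels were 102 ± 2.71 CPM (SD, n = 3) in neg.si against 150 ± 18.2 CPM (SD, n = 3) in RIPK4.si. The log2 fold change was 0.56 (SE 0.147, 95% interval 0.23 to 0.89, edgeR adjusted p = 0.151). DESeq2 gave an adjusted p-value of 0.0504, the lowest of all alternatives, of which the highest was 0.609. The exact permutation p was again 0.1, two-sided. An unnamed long non-coding RNA gene on the opposite strand covers 192 of its exon bases, or 3.9%, and since the authors counted without regard to strand, reads there could not be assigned by strand.

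TLR4, the receptor for lipopolysaccharide and the other receptor with which TRIL has been placed, was detected at a low level. TLR4 (chromosome 9, 117704175 to 117724735) had 84, 141, 151 counts in neg.si (replicates 1, 2, 3) against 91, 108, 120 in RIPK4.si. The groups overlapped, with neg.si replicate 1 the lowest library of all 6. The log2 fold change was -0.18 (SE 0.26, 95% interval -0.77 to 0.40, edgeR adjusted p = 0.909). The interval spans ratios of 0.587 to 1.32. In GENCODE release 44 a protein-coding gene without a symbol on the same strand shares 678 of its exon bases, or 5.1%, and that gene was not in the table.

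TLR1 and TLR6 encode partners of TLR2 in the recognition of bacterial lipopeptides. They lie next to each other on chromosome 4, with TLR1 at 38790677 to 38856817 and TLR6 at 38823715 to 38856817, both on the minus strand, so that the spans in the file overlap. They share 57 exon bases in GENCODE release 44, and their coding sequences are similar, so part of their reads may have been lost or split in counting. TLR1 was counted 353, 366, 561 times in neg.si (replicates 1, 2, 3) against 400, 520, 535 times in RIPK4.si. The estimate for TLR1 was a log2 fold change of 0.24 (SE 0.214, 95% interval -0.24 to 0.73, edgeR adjusted p = 0.81). TLR6 was counted 210, 285 and 428 times in neg.si and 351, 233 and 392 times in RIPK4.si. For TLR6 the log2 fold change was 0.13 (SE 0.276, 95% interval -0.49 to 0.75, edgeR adjusted p = 0.945). In both genes the groups overlapped, and in CPM the highest library was neg.si replicate 3 for TLR6 and RIPK4.si replicate 2 for TLR1.

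TLR2 and TLR5 were near the limit of detection. TLR2 (chromosome 4, 153684070 to 153705702) had 35, 11, 47 counts in neg.si (replicates 1, 2, 3) against 28, 26, 35 in RIPK4.si, so that the lowest and the highest library both belonged to neg.si. Its log2 fold change was -0.0013 (SE 0.452, edgeR adjusted p = 0.999), and the 95% interval, from -1.02 to 1.01, was the widest of the 9 genes. TLR5, the receptor for bacterial flagellin (chromosome 1, 223109404 to 223143248), had 7 counts in neg.si replicate 3 and 0 in every other library. It did not pass the filter on low counts and was not tested. In RIPK4.si, 0 counts over the 3 libraries allow a level of up to 0.0336 CPM, counting error only.

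The adaptors and the chaperone were detected in every library with overlapping groups. MYD88 (chromosome 3, 38138478 to 38143022) had 2773, 2967, 2223 counts in neg.si (replicates 1, 2, 3) against 2336, 2955, 2647 in RIPK4.si. MYD88 thus had a log2 fold change of 0.05 (SE 0.176, 95% interval -0.35 to 0.44, edgeR adjusted p = 0.974). TICAM1, the adaptor of TLR3 (chromosome 19, 4815932 to 4831704), had 370, 370 and 249 counts in neg.si and 325, 282 and 338 in RIPK4.si. Its log2 fold change was -0.02 (SE 0.209, 95% interval -0.49 to 0.45, adjusted p = 0.992). UNC93B1 (chromosome 11, 67991100 to 68004982) had 669, 459 and 324 counts in neg.si and 417, 594 and 450 in RIPK4.si. For UNC93B1 it was 0.06 (SE 0.276, 95% interval -0.56 to 0.69, adjusted p = 0.976). For all 3 genes the lowest library was neg.si replicate 3, which was the lowest of its group in 42.7% of tested genes. The intervals exclude a ratio of 2 in either direction for these 3 genes and for TLR1, TLR4 and TLR6, but not for TLR2, whose interval spans ratios of 0.494 to 2.02.

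**Figure D2:**
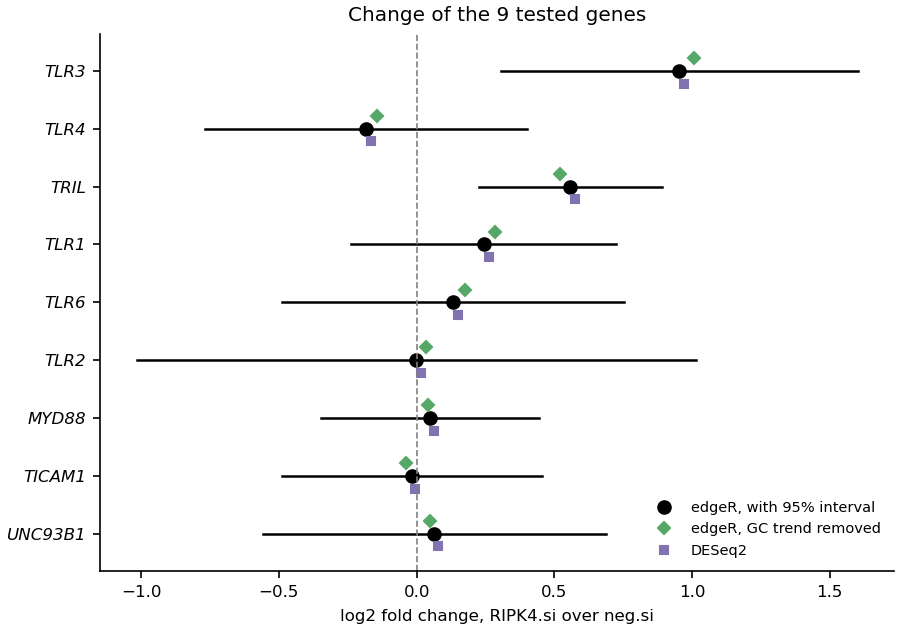
Log2 fold change of RIPK4.si over neg.si for the 9 tested genes; black points and bars are edgeR estimates with 95% intervals, green diamonds the estimates with the GC trend removed, purple squares DESeq2. The intervals of TLR3 (0.31 to 1.60) and TRIL (0.23 to 0.89) lie above 0, and those of the other 7 genes include it.

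Per length, the adaptor MYD88 and the co-receptor TRIL were far more abundant than any of the receptors. In neg.si, MYD88 had 20.6 ± 3.51 CPM per kilobase of exon (SD, n = 3) and TRIL 20.4 ± 0.545, with overlapping libraries. UNC93B1 (4.44 ± 1.62), TICAM1 (3.99 ± 0.927) and TLR1 (3.03 ± 0.752) followed, each overlapping the next in this order. TLR6 was at 1.45 ± 0.491 CPM per kilobase, under TLR1 and above TLR3 in every neg.si comparison of libraries. TLR3 had 0.503 ± 0.19, TLR4 0.305 ± 0.0875 and TLR2 0.172 ± 0.0986, and neighbours among these 3 overlapped when different libraries were compared. Within each neg.si library TLR3 was above TLR4, and TLR4 above TLR2. For TLR3 and TLR4 the values were 0.284 and 0.204, 0.600 and 0.354, and 0.626 and 0.358 in replicates 1, 2 and 3. In RIPK4.si, TLR3 lay between 0.9 and 1.03 CPM per kilobase in the 3 libraries and did not overlap TLR4, which lay between 0.234 and 0.291. There TLR3 stayed under TLR6, which lay between 1.18 and 1.84. Exon length was the union of annotated exons, which for TLR4 is 13277 bases and includes a long 3' UTR. The level of a gene that uses shorter forms is understated by this measure.

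**Figure D3:**
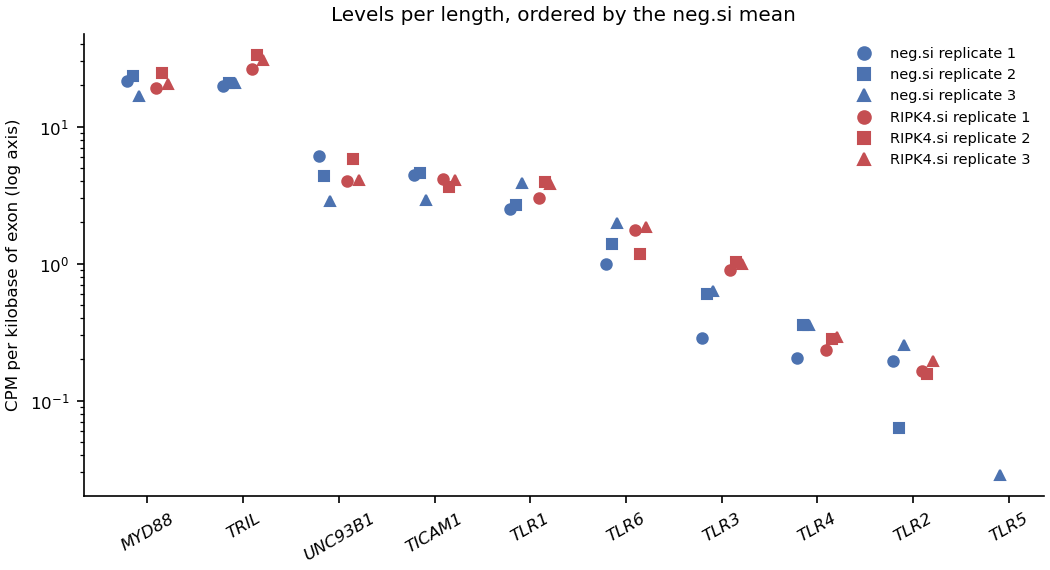
Transcript level per kilobase of exon, on a log axis, for each library of neg.si (blue) and RIPK4.si (red), with genes ordered by their neg.si mean. TLR5 is drawn only for neg.si replicate 3, its other libraries being at 0. MYD88 and TRIL are the highest in both groups, at means of 20.6 and 20.4 CPM per kilobase in neg.si and 21.2 and 30.1 in RIPK4.si, and TLR3, TLR4 and TLR2 are under 1.1 in every library.

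The neg.si libraries differed in how a gene's level, relative to its mean, went with the GC content of its exons. The rank correlation was 0.562 for replicate 1 but -0.554 for replicate 3, computed across genes, which are not independent replicates. The receptors TLR1, TLR2, TLR3, TLR4 and TLR6 have exons of 39.1% to 42.8% GC, under the median of 47.8% of all tested genes, and TRIL, MYD88, TICAM1 and UNC93B1 have 54.2% to 66.7%. In neg.si, TLR1, TLR3, TLR4 and TLR6 were lowest in replicate 1 and highest in replicate 3, as were 33.4% of all tested genes, and so was TRIL. The TLR3 level in replicate 3 was 2.20 times that in replicate 1, and this ratio was 1.53 with the GC trend removed. For UNC93B1 the ratios were 0.472 and 0.912. With the trend removed, TLR3 was at 2.51, 4.57 and 3.85 CPM in neg.si replicates 1, 2 and 3 and at 6.74, 8.06 and 7.28 CPM in RIPK4.si, so the groups again did not overlap. TRIL behaved otherwise, since the same step widened its neg.si libraries to 85.7, 101 and 123 CPM, against 132, 157 and 156 CPM in RIPK4.si. The part of base composition in the group differences was not tested beyond this correction.

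**Figure D4:**
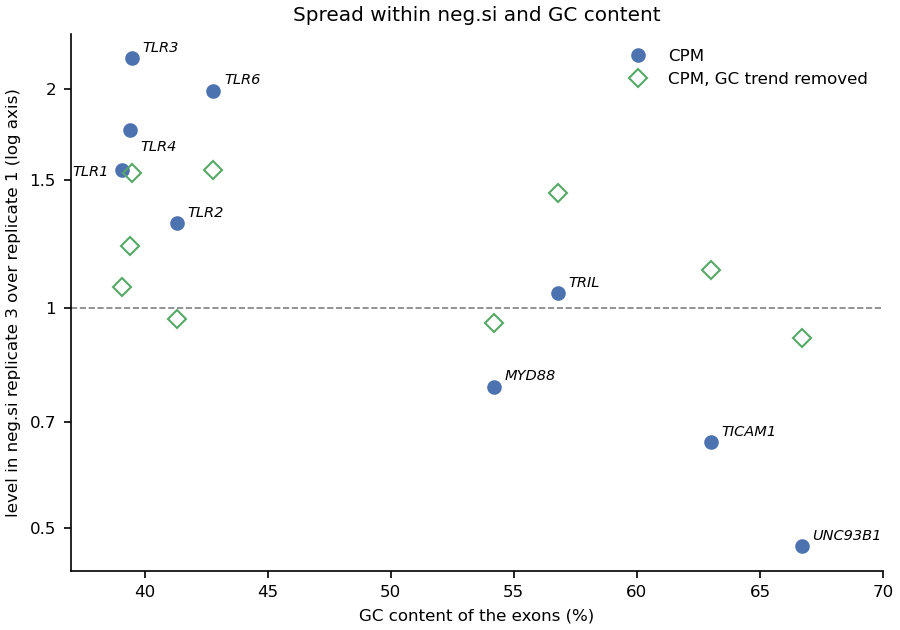
Ratio of the level in neg.si replicate 3 to that in replicate 1, on a log axis, against GC content of the exons in percent, for the 9 tested genes; blue points are CPM and green diamonds CPM with the GC trend removed. The CPM ratio runs from 2.20 for TLR3 to 0.472 for UNC93B1, and with the trend removed the ratios lie between 0.912 and 1.55.

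The 7-base sequence ACAGCTT was looked for in 3' UTRs because earlier results of these data had set it beside lower levels in RIPK4.si. The medians below thus describe the data from which the sequence was taken and are no separate test. Among tested protein-coding genes, the median log2 fold change was -0.10 for the 2074 genes whose longest annotated 3' UTR holds it and -0.0006 for the 10881 without it, and 3' UTRs with it were longer (median 3235.5 against 1280 bases). Of the 10 genes, TLR3 and TLR4 hold 1 copy each, shown in capitals with 10 bases on either side.
TLR3, chr4:186085134-186085160, plus strand: tgagcctatgACAGCTTaaggagtttg
TLR4, chr9:117719981-117720007, plus strand: cttaggtcacACAGCTTatattaatca
With the same sequence in their 3' UTRs, TLR3 and TLR4 had log2 fold changes of 0.95 and -0.18.

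Other receptors and co-receptors were sparse apart from LY96 and CD36. Of 10 listed genes 7 were in the table and 5 were tested, and 0 were called with edgeR, DESeq2 or the GC trend removed, or passed an unadjusted p-value of 0.05 with edgeR. The same analyses called 0.767%, 2.78% and 3.42% of all genes they tested, and 10.8% passed the unadjusted p-value. TLR7, an endosomal receptor for single-stranded RNA, had 7, 21, 15 counts in neg.si (replicates 1, 2, 3) against 22, 21, 37 in RIPK4.si, with a log2 fold change of 0.93 (SE 0.45, edgeR adjusted p = 0.513). The TLR7 groups touched in counts but did not overlap in CPM. LY96 (MD-2), the lipopolysaccharide-binding partner of TLR4, was at 53.7 ± 4.10 CPM (SD, n = 3) in neg.si against 54.7 ± 19.1 CPM in RIPK4.si. CD14, its co-receptor, was at 1.43 ± 0.719 and 1.02 ± 0.208 CPM. TLR7, LY96 and CD14, and HSP90B1, DDX58 and IFIH1 below, were named after their values were seen.

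Among 9 genes for folding and proteolytic processing of the receptors, all were tested and 0 were called with any of the 3 analyses, or passed an unadjusted p-value of 0.05 with edgeR. For comparison, 10.8% of all tested genes passed that p-value and 0.767% (edgeR), 2.78% (DESeq2) and 3.42% (GC trend removed) were called. The list's median log2 fold change was -0.08. HSP90B1 (GRP94), the chaperone on which most Toll-like receptors depend, was at 2146 ± 252 CPM (SD, n = 3) in neg.si against 1720 ± 250.4 CPM in RIPK4.si, with overlapping groups.

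Of 27 signalling genes, 26 were tested and 0 were called with edgeR or DESeq2, which called 0.767% and 2.78% of all genes they tested. At an unadjusted p-value under 0.05 in edgeR there was 1 of the 26, IRAK1, a kinase recruited by MYD88, where 10.8% of all tested genes passed. IRAK1 was counted 5088, 3691, 2401 times in neg.si (replicates 1, 2, 3) against 4708, 6248, 5584 times in RIPK4.si, and the groups overlapped through neg.si replicate 1. The log2 fold change was 0.62 (SE 0.261, edgeR adjusted p = 0.429), and the adjusted p-value was 0.0379 with the GC trend removed, which called 3.42% of all tested genes. Without neg.si replicate 3 the IRAK1 estimate was 0.37 (edgeR adjusted p = 0.412), and without neg.si replicate 1 it was 0.92 (edgeR adjusted p = 0.135). The list's median log2 fold change was -0.04, with 12 genes above 0 and 14 below.

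Cytosolic sensors form the other arm that detects double-stranded RNA. Of 16 listed genes all were tested, 0 were called with edgeR (0.767% of all tested genes), 3 had an unadjusted p-value under 0.05, all higher in RIPK4.si (4.85% of all tested genes), and DESeq2 called 1, OAS2 (2.78% of all). The fit with the GC trend removed called 0 of the 16, where it called 3.42% of all tested genes. The median log2 fold change was 0.24, against -0.02 over all tested genes. Above 0 were 13 of the 16, where 7596 of all 16297 tested genes were. In 5 genes every RIPK4.si library was above every neg.si library, as in 8.23% of all tested genes. OAS2, an oligoadenylate synthetase activated by double-stranded RNA and induced by interferon, had 4042, 7351, 4462 counts in neg.si (replicates 1, 2, 3) against 7477, 10934, 10971 in RIPK4.si. Its log2 fold change was 0.93 (SE 0.261, edgeR adjusted p = 0.179, 0.0217 from DESeq2 and 0.0911 with the GC trend removed). OASL, its catalytically inactive relative, was at 2.82 ± 1.29 CPM (SD, n = 3) in neg.si against 5.26 ± 1.74 CPM in RIPK4.si, with a log2 fold change of 0.90 (edgeR adjusted p = 0.42). The OASL estimate was 0.58 when neg.si replicate 3 was left out, 0.60 when RIPK4.si replicate 2 was, and at most 1.22 on leaving out any other library. DHX58 (LGP2), a regulator of the RNA helicase sensors, was at 21.5 ± 3.53 and 30.3 ± 3.28 CPM, a log2 fold change of 0.49 (edgeR adjusted p = 0.33). The helicase sensors DDX58 (RIG-I) and IFIH1 (MDA5) had log2 fold changes of 0.19 and 0.32 with adjusted p-values of 0.899 and 0.669 from edgeR.

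Among 16 genes that Toll-like receptor signalling induces, 14 were tested and 0 were called with edgeR, DESeq2 or the GC trend removed, and 2 had an unadjusted p-value under 0.05 in edgeR. Over all tested genes these shares were 0.767%, 2.78%, 3.42% and 10.8%. CCL2, a monocyte chemokine, was at 17.5 ± 2.67 CPM (SD, n = 3) in neg.si against 24.0 ± 2.97 CPM in RIPK4.si, with a log2 fold change of 0.45 (edgeR adjusted p = 0.383). CXCL2, a neutrophil chemokine, was at 3.16 ± 0.383 and 2.13 ± 0.0327 CPM, a log2 fold change of -0.57 (edgeR adjusted p = 0.353). The median of the list was -0.01, with 7 genes above 0 and 7 below.

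**Figure D5:**
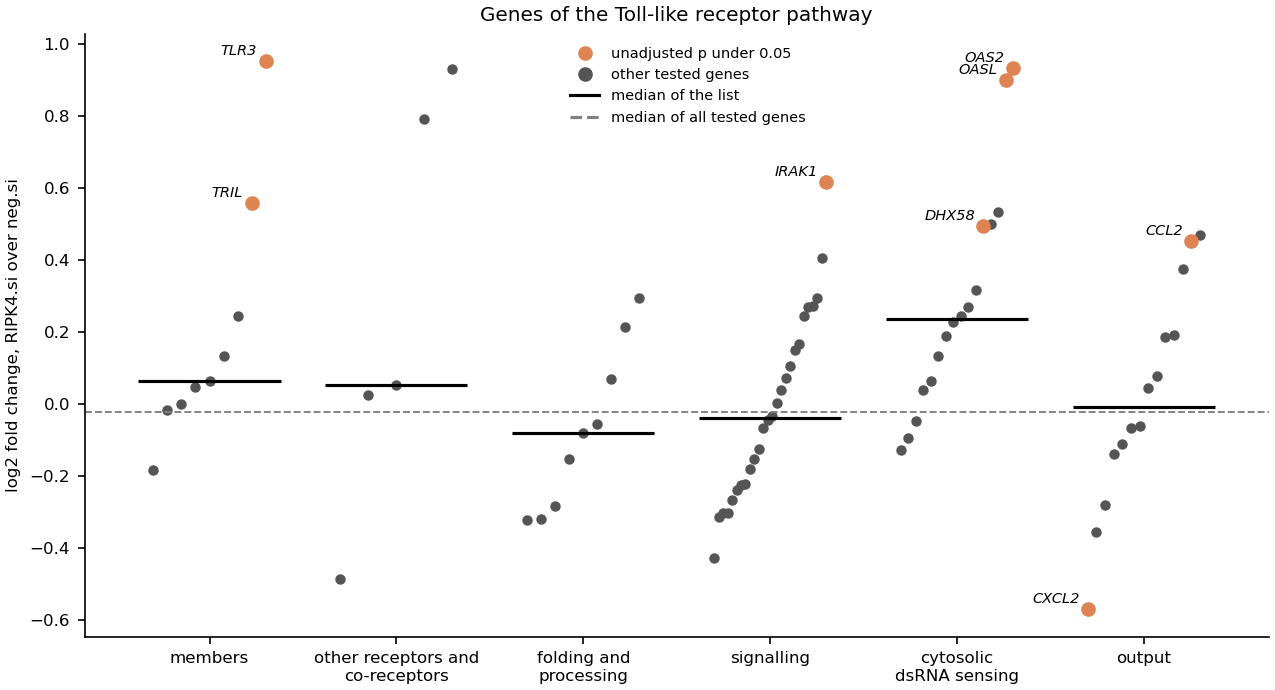
Log2 fold change of RIPK4.si over neg.si for every tested gene of the Toll-like receptor lists, 1 point a gene sorted within its list; orange points have an unadjusted p-value under 0.05, black bars are list medians and the dashed line is the median of all tested genes (-0.02). The median of the cytosolic sensing list is 0.24, and those of the other lists lie between -0.08 and 0.06.

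The genes whose profile over the 6 libraries was most like that of TLR3 and TRIL were found by the root mean square difference of log2 CPM centred on each gene's mean. The group difference is part of that profile, so the group differences of these genes follow from the way they were chosen. For TLR3 the nearest were the pseudogene AC093162.2 (0.153), the proteasome subunit gene PSMA1 (0.154) and the long non-coding RNA AC021660.4 (0.159). Of these 3 only PSMA1 exceeded 0.5 CPM, with 5.78, 8.99 and 12.2 CPM in neg.si replicates 1, 2 and 3 and 14.7, 19.9 and 17.2 CPM in RIPK4.si. For TRIL the nearest were BAG2 (0.0234), a co-chaperone gene, TMEM230 (0.0255) and TCEAL8 (0.0492). BAG2 lay between 19.7 and 20.3 CPM in neg.si and between 26.2 and 33.3 CPM in RIPK4.si, with a log2 fold change of 0.57 (edgeR adjusted p = 0.17).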

How the data were processed

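RNA was measured in 3 neg.si and 3 RIPK4.si libraries of WM266.4 cells, grouped by their titles. The authors enriched poly(A) RNA, removed adapters with Cutadapt and mapped the read pairs by TopHat on GRCh38.p13. HTSeq assigned pairs to genes, ignoring strand. The deposited counts are raw whole numbers, and every gene listed totals 6 or more. The same table holds normalized counts and the authors' fold changes, standard errors and p-values from DESeq2, which were not used.

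Counts were analysed with edgeR 4.0.16 (TMM, filterByExpr, quasi-likelihood test) in R 4.3.3, with Benjamini-Hochberg adjustment. The standard error was the log2 fold change divided by the square root of F. Exon length, GC content and 3' UTRs came from GENCODE release 44 on GRCh38, in which 24416 of the 24526 genes were found by identifier, and promoters from RefSeq. Alternatives were DESeq2 1.42.0, other scalings and filters, a replicate block, removal of each library's GC trend (lowess, span 0.3, prior count 2 for log2 CPM) and each library left out. The fit was tested on simulated data. Genes, lists and motifs were chosen with earlier results of these data known. Genes named were the 10, RIPK4, those of the lists with an unadjusted p-value under 0.05 (up to 10 a list), the 3 genes nearest in profile to TLR3 and to TRIL, and others where stated. SOX10, MITF, MLANA, TYRP1, PTPRC and CD36 were named outside this rule. TLR8, TLR9, LY86, TICAM2, IFNB1, CD68 and FCGR1A were not analysed here. Intervals cover the spread between these libraries and floors counting error only. To look for a repeated deposit of one library, replicates within a group were compared with counting noise, and every pair differed by more than it (chi-square per degree of freedom from 18.4 to 132), which says nothing further about the replicates.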

Additional observations from a re-analysis of the deposited data

How the results depend on the processing

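The count of called genes among the 10 was 0 in the main analysis and under other scalings, filters and the replicate block, and it was 1, TLR3, with DESeq2, with the GC trend removed and with the GC trend removed in a fit with the replicate block. Among signalling genes 1, IRAK1, was called with the GC trend removed with and without the block. Among cytosolic sensors 1, OAS2, was called with DESeq2, with the replicate block (edgeR adjusted p = 0.0429) and with both block and GC removal (0.0215). Over all genes the count of 125 became 430 with DESeq2, 558 with the GC trend removed, 452 with GC removal and block, and 0 to 295 with 1 library left out, with 70, 0 and 295 calls on leaving out neg.si replicates 1, 2 and 3 in turn and 0, 4 and 0 for those of RIPK4.si. With 1 library left out, 0 of the 10 genes were called in each case. The log2 fold change then ranged from 0.69 to 1.15 for TLR3, from 0.49 to 0.66 for TRIL, from -0.39 to -0.05 for TLR4 and from 0.14 to 0.47 for TLR1. It changed sign for TLR2 (-0.38 to 0.41), TLR6 (-0.060 to 0.42), MYD88 (-0.076 to 0.17), TICAM1 (-0.20 to 0.11) and UNC93B1 (-0.16 to 0.38). TLR2, at -0.0013 in the main analysis, was also above 0 with DESeq2's size factors (0.015), upper-quartile scaling (0.0063), no filter (0.013), DESeq2 (0.016), the replicate block (0.12), GC removal (0.033) and GC removal with the block (0.13), and TICAM1 was at 0.0066 with the replicate block. The cause of these changes was not tested.

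The labels give both groups replicate numbers 1 to 3, but same-numbered libraries did not deviate together throughout, with correlations of their deviations across genes of -0.242, 0.251 and 0.346, and neg.si replicate 1 resembled RIPK4.si replicate 2 most (0.413). These correlations were computed with each library's GC trend left in, so they cannot decide whether same-numbered libraries came from the same experiment. The main fit did not take the numbers as pairs. The replicate block gave 131 calls over all genes, and under it TLR3 had a log2 fold change of 1.02 (adjusted p = 0.127 from edgeR) and TRIL 0.55 (adjusted p = 0.185). Depth limits TLR2, TLR5, TLR7 and CD14, which had few counts in each library.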
